A study of Mus musculus with 37 samples.

Results

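The Dlk1-Meg3 imprinted cluster was followed through its 6 named genes, which were 6 of the 35542 genes of the count table and were found by their symbols on chromosome 12. Of these, 3 are coding and 3 non-coding. Dlk1, Rtl1 and Dio3 encode proteins, whereas Meg3, Rian and Mirg are long RNAs without a known protein. RNA-seq of poly(A) RNA was carried out on the tailbud of 37 mouse embryos at embryonic day 8 to 8.5, with 1 library per embryo and 6 to 11 somites, the segments of trunk mesoderm by whose number an embryo is staged. The 21 Smchd1wt embryos carried Smchd1[fl/+] and served as controls. The 16 Smchd1matΔ embryos carried Smchd1[del/+] and came from oocytes that lacked SMCHD1, a silencing factor bound to chromatin, through an MMTV-Cre transgene in the mother. All embryos were C57BL/6/Cast F1 hybrids. The deleted allele came from the mother, so loss of the oocyte supply and of the maternal copy cannot be told apart. Smchd1wt and Smchd1matΔ groups held 4 and 4 embryos at 6 somites, 4 and 3 at 7, 3 and 2 at 8, 3 and 2 at 9, 4 and 3 at 10, and 3 and 2 at 11 somites. There were 13 females and 8 males among Smchd1wt and 11 females and 5 males among Smchd1matΔ embryos, and every embryo with 6 somites and every Smchd1matΔ embryo with 8 or 9 somites was female.

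Imprinted genes are expressed from the allele of a single parent. In this cluster the coding genes are mainly expressed from the paternal chromosome and the non-coding RNAs from the maternal chromosome, under the control of a differentially methylated region between Dlk1 and Meg3. DLK1 is a membrane protein related to the Notch ligands, RTL1 derives from a retrotransposon and acts in placental capillaries, and DIO3 is the deiodinase that inactivates thyroid hormone. Meg3 is a nuclear RNA, Rian hosts small nucleolar RNAs and Mirg hosts microRNAs. The table counts reads per gene and not per allele, so expression was followed here without regard to parental origin.

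Dlk1 and Rtl1 were listed at 0 counts in all 37 libraries. Meg3 had 31 counts in 13 libraries and Rian 57 counts in 20 libraries. Mirg, with 8460 counts in 37 of 37 libraries, and Dio3, with 3068 counts in 36 of 37, were the only members that passed the filter on low counts, 1 non-coding and 1 coding. The genotype and stage comparisons below therefore rest on Mirg and Dio3, and the other 4 members are given by their counts.

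The libraries held 0.916 to 80.6 counts in units of 1e6 (median 12.8). Smchd1 itself lay at 105 to 204 CPM (counts per 1e6 counts, TMM normalised) in Smchd1wt and at 64.0 to 112 CPM in Smchd1matΔ embryos. The ribosomal RNA genes Gm42418 and CT010467.1 took up to 2.77% of the counts in Smchd1matΔ libraries against at most 0.905% in Smchd1wt. The 10 tailbud markers were all detected, with a summed level of 599 to 1705 CPM. Of the 7 somite markers Uncx and Pax1, and of the 5 neural tube markers Olig2, had under 0.1 counts per 1e6 over all libraries. The other markers of these lists were counted, the highest being Meox1 (somite, 5.28) and Irx3 (neural tube, 22.2 counts per 1e6). The somite sum lay at 0 to 52.9 CPM and the neural tube sum at 19.6 to 49.9 CPM. Replicate 1 of Smchd1wt at 10 somites stood apart, with the lowest tailbud sum (599 CPM) and an endoderm marker sum of 3393 CPM against 145 to 592 CPM in the other 3 embryos of its group.

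Mirg lies on chromosome 12 at chr12:109729764-109749460 of GRCm38, on the plus strand, with 14 merged exons in GENCODE M21. RefSeq places 58 microRNA hairpins between the start of Dlk1 and the end of Dio3, of which 14, with 26 mature sequences, lie inside the Mirg row. These short RNAs are not what a poly(A) library counts, but they are the product for which the Mirg transcript is known, so 6 are shown with the seed (bases 2 to 8) in capitals. The 26 sequences have 25 different seeds, and the single pair that shares a seed comes first.
mmu-miR-453: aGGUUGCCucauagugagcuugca
mmu-miR-496a-5p: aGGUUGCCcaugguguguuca
mmu-miR-134-5p: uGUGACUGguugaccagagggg
mmu-miR-154-5p: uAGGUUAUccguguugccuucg
mmu-miR-409-3p: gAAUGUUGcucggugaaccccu
mmu-miR-410-3p: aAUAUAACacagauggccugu
The pair miR-453 (chr12:109735669-109735692) and miR-496a-5p (chr12:109739132-109739152) holds its seed alone among the 1738 mature mouse sequences of the table. The seed of miR-410-3p is found in 5 mouse sequences, and those of miR-134-5p, miR-154-5p and miR-409-3p in 1 each.

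Start site windows (250 bases before to 50 after the RefSeq start, GRCm38.p6, plus strand) are shown for the 2 members with tested values and for the 2 that name the cluster, with CG dinucleotides in capitals.
Dlk1: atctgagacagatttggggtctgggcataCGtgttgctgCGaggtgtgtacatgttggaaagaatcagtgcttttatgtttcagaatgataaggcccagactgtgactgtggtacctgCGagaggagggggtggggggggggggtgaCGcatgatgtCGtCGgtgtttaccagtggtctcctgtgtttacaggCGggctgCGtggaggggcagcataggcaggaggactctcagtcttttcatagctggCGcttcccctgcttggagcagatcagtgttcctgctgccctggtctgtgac
Meg3: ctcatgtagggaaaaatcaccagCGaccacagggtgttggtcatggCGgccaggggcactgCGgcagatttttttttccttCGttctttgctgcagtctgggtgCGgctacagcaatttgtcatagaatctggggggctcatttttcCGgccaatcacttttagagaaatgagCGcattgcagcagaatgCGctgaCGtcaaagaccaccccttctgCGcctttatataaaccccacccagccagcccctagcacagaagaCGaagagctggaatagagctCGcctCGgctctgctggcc
Mirg: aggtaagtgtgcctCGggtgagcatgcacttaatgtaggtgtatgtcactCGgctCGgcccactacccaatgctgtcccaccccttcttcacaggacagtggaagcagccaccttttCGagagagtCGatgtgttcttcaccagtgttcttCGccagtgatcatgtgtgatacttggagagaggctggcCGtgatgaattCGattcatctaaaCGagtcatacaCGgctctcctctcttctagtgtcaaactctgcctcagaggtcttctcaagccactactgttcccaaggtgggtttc
Dio3: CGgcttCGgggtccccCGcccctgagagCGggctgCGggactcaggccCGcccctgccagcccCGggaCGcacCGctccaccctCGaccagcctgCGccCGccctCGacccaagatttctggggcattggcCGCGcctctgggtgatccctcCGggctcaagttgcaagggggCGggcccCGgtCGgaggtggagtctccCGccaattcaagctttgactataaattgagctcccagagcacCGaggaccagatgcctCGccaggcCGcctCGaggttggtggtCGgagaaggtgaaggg
The Dio3 window (chr12:110278980-110279279) has 25 CG, a number reached by 18.4% of the 32851 mouse windows, and 69% G and C. It holds 4 matches to GGGCGG and 1 to TATAAA on either strand, motifs found in 35.7% and 13.6% of all windows. The Meg3 window shown (chr12:109540746-109541045) has 13 CG and 2 overlapping matches to TATAAA, 1 on each strand. RefSeq gives Meg3 a second start, whose window (chr12:109545148-109545447) has 1 CG and 0 matches to TATAAA. The Dlk1 window (chr12:109452573-109452872) has 9 CG and the Mirg window (chr12:109734731-109735030) has 10, with neither motif in these letters. The RefSeq start of Mirg lies 5217 bp inside the row of the count table, and 3 mature microRNAs lie within its window. The RefSeq window of Rian holds 0 CG, and for Rtl1 no window was used.

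Among the coding members, Dlk1 (chr12:109452823-109463336, 6 merged exons) was listed at 0 in every library. Over all libraries, which held 539.5 counts in units of 1e6, 0 counts allow a level of up to 0.00556 counts per 1e6 (3 counts), and 0.0372 to 3.27 counts per 1e6 in a single library. The same limits hold for Rtl1 (chr12:109589193-109600330, minus strand), which was also listed at 0. Both limits cover counting error only.

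A row at 0 could not be read as a silent gene from this table. In a list of 126 genes that every cell uses, written after the data were seen, the median level was 219 counts per 1e6, yet Ndufs3, a subunit of respiratory complex I, had 4 counts in all libraries together. Its neighbours on chromosome 2 within the same stretch, Kbtbd4 and Ptpmt1, were listed at 0, while Mtch2 before and Psmc3 after it had 30223 and 134701 counts. Between Ptpmt1 and Psmc3, Celf1 had 906 and Gm13778 53 counts. The rows of Ndufs3 and Kbtbd4 overlap, as do those of Kbtbd4 and Ptpmt1, and the Dlk1 row overlaps no other row of the cluster. Uqcrc1 and Srsf1 had 2.73 and 4.03 counts per 1e6. With Ndufs3 they were the only 3 of the 126 genes under 10 counts per 1e6, and Ndufs3 was the only 1 under 1. Of the 21855 protein-coding genes, 17.5% were at 0 in every library. Whether the empty or nearly empty rows of the cluster (Dlk1, Rtl1, Meg3 and Rian) share a cause with these was not tested, so the rates, shares and ratios below describe the counts of this table.

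Genes on both sides of the cluster were counted, and most rows within it were not. Of the 20 rows that lie between the start of Dlk1 and the end of Dio3, a span of 828275 bp, 14 are not members, and 7 of these were at 0 in every library. Another 6 had 1 to 19 counts. Only Dio3os, which starts next to Dio3 on the other strand, had more, with 419 counts in 33 libraries (0.777 counts per 1e6). Before Dlk1, Wars (tryptophanyl-tRNA synthetase) had 142 counts per 1e6, Wdr25 had 7.79 and Begain 2.6. After Dio3, Ppp2r5c (a phosphatase subunit) had 128 and Dync1h1 (the dynein heavy chain) 230 counts per 1e6.

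**Figure D1:**
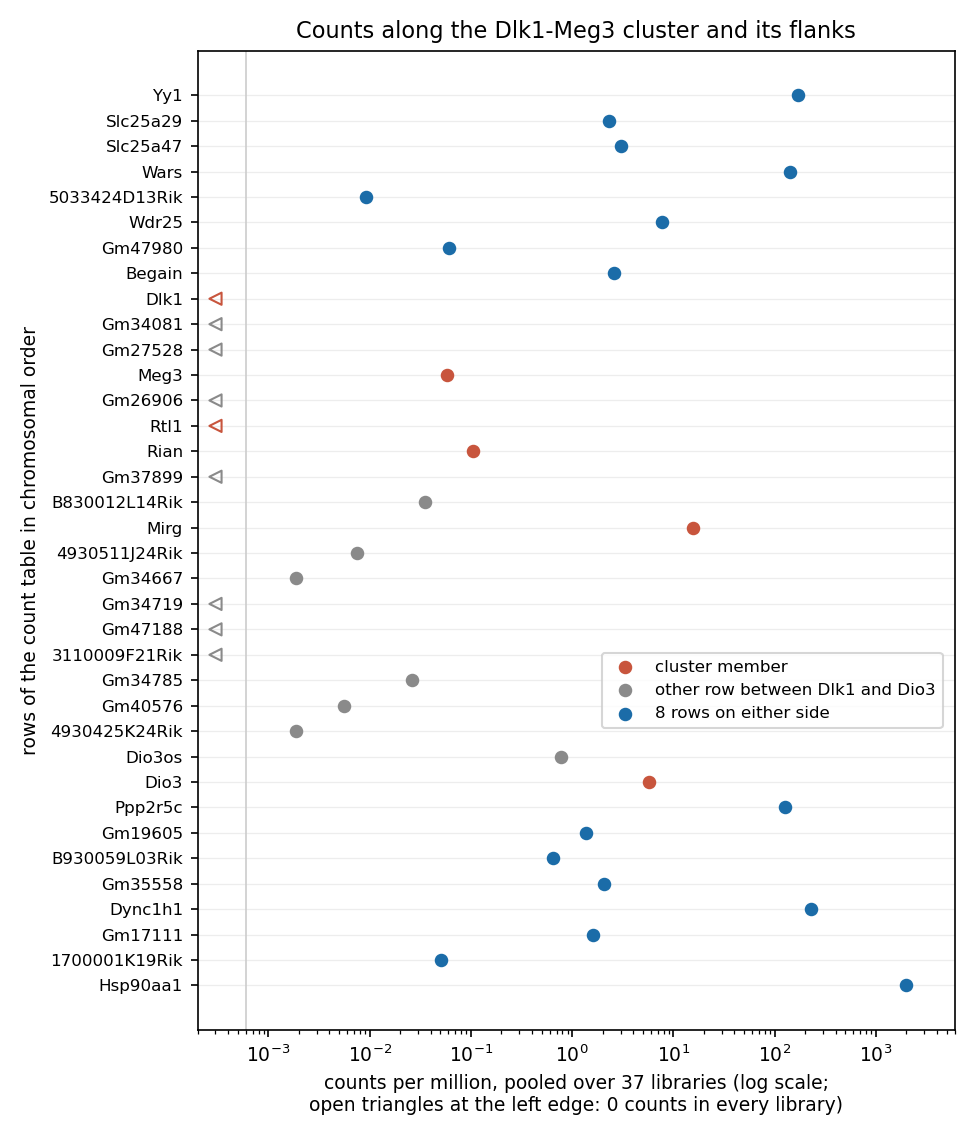
Counts per 1e6 (x axis, log scale) pooled over 37 libraries for each row of the count table in chromosomal order (y axis), for the 6 members, the 14 other rows between them and 8 rows on either side. Open triangles at the left edge are rows at 0, among them Dlk1 and Rtl1. Mirg (15.7) and Dio3 (5.69) are the only rows between Dlk1 and Dio3 above 1 count per 1e6.

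Meg3 (chr12:109541001-109571726), the maternal RNA that names the cluster with Dlk1, was near the floor in both genotypes. It had 20 counts over 7 of 21 Smchd1wt libraries and 11 counts over 6 of 16 Smchd1matΔ libraries, with at most 5 in a library. These are 0.0631 counts per 1e6 (95% Poisson interval 0.0385 to 0.0974) and 0.0494 (0.0247 to 0.0884). The intervals overlapped, and a difference between genotypes was not detectable at this depth. By stage, 24 of the 31 counts fell at 6 to 8 somites, 0.108 counts per 1e6 (0.0693 to 0.161), and 7 at 9 to 11 somites, 0.0220 (0.00886 to 0.0454).

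Smchd1wt embryos had 17 counts in 6 of 11 libraries at 6 to 8 somites and 3 counts in 1 of 10 libraries at 9 to 11 somites. Smchd1matΔ embryos had 7 counts in 3 of 9 libraries and 4 counts in 3 of 7. Meg3 did not pass the filter on low counts. In a fit without that filter its slope in Smchd1wt was -0.94 ± 0.28 (log2 per somite, SE, n = 21, adjusted p = 0.0489 by edgeR's quasi-likelihood test, where 4.61% of genes were called), and in Smchd1matΔ -0.03 ± 0.26 (n = 16, adjusted p = 0.991). The difference in slope between genotypes had an adjusted p of 0.975 in the same edgeR fit. With 0 to 4 counts per Smchd1wt library these slopes are described and not relied upon.

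Rian (chr12:109603808-109661716), the host of small nucleolar RNAs, showed 37 counts over 13 Smchd1wt libraries and 20 counts over 7 Smchd1matΔ libraries, or 0.117 (0.0822 to 0.161) and 0.0899 (0.0549 to 0.139) counts per 1e6. It had 0.135 counts per 1e6 (0.0913 to 0.193) at 6 to 8 somites and 0.0850 (0.0560 to 0.124) at 9 to 11 somites. Both pairs of Poisson intervals overlapped. The highest library, replicate 1 of Smchd1wt at 9 somites with 11 counts, was also the deepest, at 80.6 counts in units of 1e6.

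Mirg carried 99.0% of the counts of the non-coding members and Dio3 (chr12:110279068-110281097, 1 exon) all of those of the coding members. Per length, the means over 37 embryos were 2.24 RPKM (CPM per kilobase of exon) for Mirg and 2.63 RPKM for Dio3. Both sat in the lower part of the expressed genes, since 36.1% and 38.8% of the 15976 genes past the filter with a known length had a lower mean RPKM. Meg3 and Rian were at 0.00377 and 0.00608 RPKM. On this scale the SD over embryos, 0.65 for Mirg and 0.96 for Dio3, exceeded the gap between them.

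To ask whether loss of maternal SMCHD1 altered the cluster, Smchd1matΔ and Smchd1wt embryos were compared at matched somite number. Of the 2 members with enough counts, 0 passed the test in any comparison of genotypes. At 6 somites Mirg lay at 22.2, 18.3, 13.8 and 17.3 CPM in the Smchd1wt embryos and at 9.50, 18.4, 20.8 and 17.3 CPM in the Smchd1matΔ embryos. At 7 somites the 4 Smchd1wt embryos had 18.0, 22.0, 13.7 and 19.3 CPM of Mirg and the 3 Smchd1matΔ embryos 17.5, 14.0 and 16 CPM. At 8 somites the values were 24.2, 12.5 and 24.6 CPM against 16.6 and 15.5 CPM. In each of these stages the lowest Smchd1wt embryo lay within or below the Smchd1matΔ values, so the groups overlapped.

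From 9 somites on the order of the Mirg means changed from stage to stage. Smchd1wt embryos with 9 somites had 14.9, 17.2 and 12.5 CPM and Smchd1matΔ embryos 21.6 and 13.5 CPM. At 10 somites Smchd1wt embryos had 32.5, 12.6, 12.5 and 10.2 CPM, with the first the highest of all 37, and Smchd1matΔ embryos 13.8, 13.9 and 14.6 CPM. At 11 somites Mirg was at 13.9, 8.27 and 13.4 CPM in Smchd1wt and at 15.6 and 11.7 CPM in Smchd1matΔ. The Smchd1matΔ mean was the lower at 6, 7, 8 and 10 somites and the higher at 9 and 11 somites.

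Dio3 overlapped between genotypes at every stage as well. At 6 somites it was at 2.25, 5.09, 4.4 and 2.30 CPM in Smchd1wt and at 0, 5.84, 4.39 and 2.56 CPM in Smchd1matΔ, where the library without a Dio3 count was replicate 1, which held 6868952 counts in all and 63 of Mirg and was among the 2 libraries richest in ribosomal RNA counts. At 7 somites Smchd1wt embryos had 5.75, 3.95, 4.80 and 6.52 CPM and Smchd1matΔ embryos 4.92, 4.22 and 3.93 CPM. At 8 somites the values were 6.02, 4.50 and 6.43 CPM against 7.66 and 2.93 CPM. The spread among Smchd1matΔ embryos at 6 somites covered the whole range of their controls.

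In the older embryos the Dio3 means were higher in both genotypes than at 6 somites. With 9 somites it lay at 6.87, 5.93 and 6.52 CPM in Smchd1wt and at 8.13 and 4.80 CPM in Smchd1matΔ embryos. With 10 somites the values were 8.18, 5.93, 9.36 and 5.70 CPM against 5.72, 7.03 and 7.31 CPM. With 11 somites they were 4.48, 2.74 and 6.88 CPM against 7.38 and 6.02 CPM. At 11 somites 2 of the 3 Smchd1wt embryos were below both Smchd1matΔ embryos and the other lay between them.

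**Figure D2:**
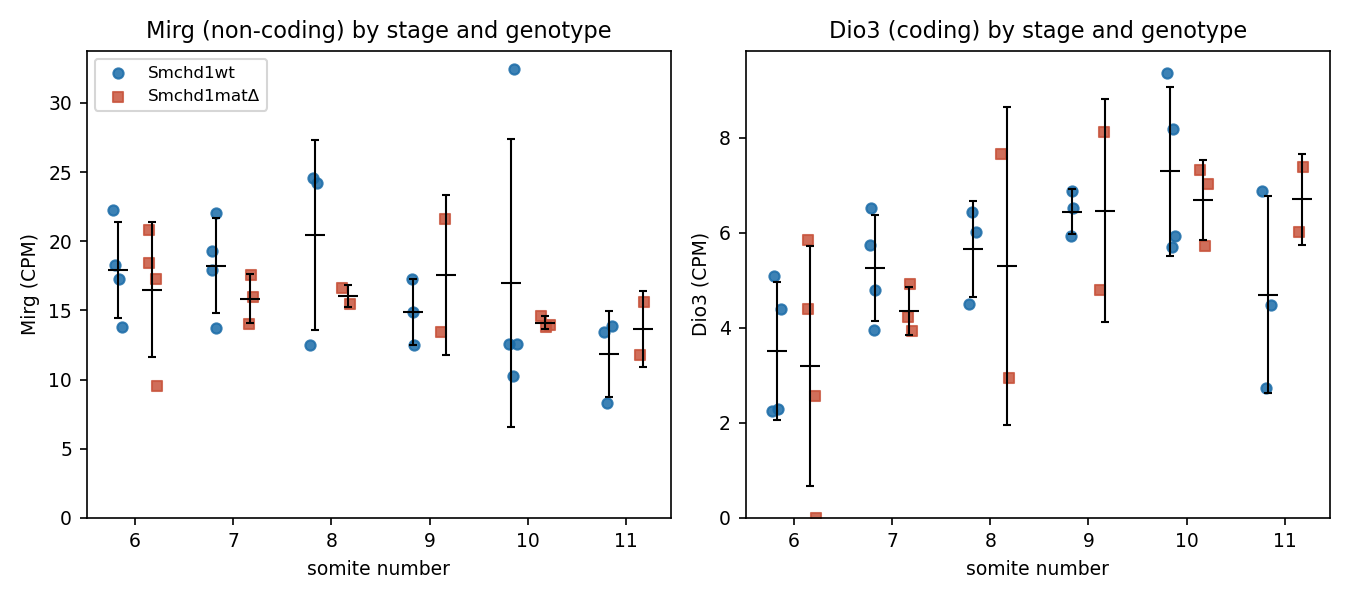
Mirg (left) and Dio3 (right) in CPM (y axes, from 0) by somite number (x axis) for Smchd1wt (circles) and Smchd1matΔ (squares) embryos, 1 point per embryo, with the group mean and SD as bars. The genotypes overlap at each of the 6 stages, and 1 Smchd1wt embryo at 10 somites lies at 32.5 CPM of Mirg.

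Over all stages Mirg averaged 16.9 ± 5.74 CPM (SD, n = 21) in Smchd1wt and 15.7 ± 3.12 CPM (n = 16) in Smchd1matΔ embryos. With stage (a level per somite number) and sex as covariates the log2 fold change was -0.09 ± 0.12 (SE, Smchd1matΔ over Smchd1wt, adjusted p = 0.959, edgeR's quasi-likelihood test), with a 95% interval of -0.33 to 0.16. Dio3 averaged 5.46 ± 1.79 and 5.18 ± 2.18 CPM, a log2 fold change of -0.05 ± 0.19 (edgeR adjusted p = 0.999), with an interval of -0.43 to 0.33. On a linear scale these intervals run from 0.796 to 1.12 for Mirg and from 0.744 to 1.26 for Dio3. Of the 2 members tested, 0 passed an adjusted p of 0.05, 0 an unadjusted one, and 0 the test of DESeq2, where edgeR called 0.0125% of all genes. The only call among the listed imprinted genes of other loci was Peg12, a paternally expressed gene of another cluster, at 0.48 ± 0.07 (edgeR adjusted p = 0.0011).

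Splitting the embryos into a younger and an older window gave no call either. At 6 to 8 somites the log2 fold changes were -0.23 ± 0.15 for Mirg and -0.22 ± 0.33 for Dio3 (edgeR adjusted p = 0.717 and 0.911, 11 against 9 embryos, 0.00639% of genes called). At 9 to 11 somites they were 0.01 ± 0.19 and 0.10 ± 0.18 (edgeR adjusted p = 0.9998 for both, 10 against 7 embryos, 0.00635% called). The difference between the windows was 0.20 ± 0.25 for Mirg and 0.30 ± 0.39 for Dio3 (edgeR adjusted p = 0.9999 for both, 0% called). Within single stages the estimates ran from -0.34 ± 0.29 (8 somites) to 0.24 ± 0.25 (9 somites) for Mirg and from -0.32 ± 0.23 (7 somites) to 0.54 ± 0.35 (11 somites) for Dio3. At every single stage 0 of 2 members and 0% of genes were called by edgeR, with 0 members at an unadjusted p under 0.05, and 0 members by DESeq2.

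**Figure D3:**
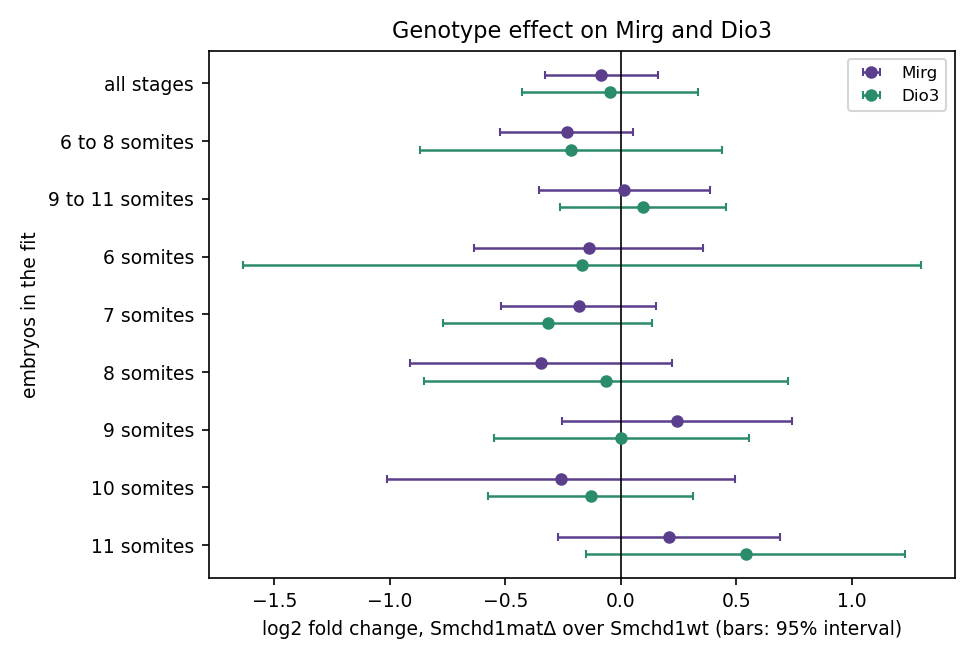
Log2 fold change of Mirg and Dio3 (x axis, Smchd1matΔ over Smchd1wt) with 95% intervals in each set of embryos fitted (y axis). Every interval crosses 0, and the widest is that of Dio3 at 6 somites, where 1 Smchd1matΔ library has no count.

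Change over development was then asked of the same members, by the slope on somite number. The fitted slopes were below 0 for Mirg and above 0 for Dio3 in both genotypes, and neither was called within a genotype. In Smchd1wt embryos the slope was -0.11 ± 0.05 log2 per somite for Mirg and 0.12 ± 0.06 for Dio3 (n = 21, edgeR adjusted p = 0.241 and 0.249, where 6.64% of genes were called). In Smchd1matΔ embryos it was -0.04 ± 0.04 and 0.23 ± 0.11 (n = 16, edgeR adjusted p = 0.717 and 0.286, 3.07% called). The slopes differed between genotypes by 0.05 ± 0.07 for Mirg and 0.10 ± 0.12 for Dio3 (edgeR adjusted p = 0.9998 for both, 0% called). In both genotypes 0 of 2 members had an unadjusted edgeR p under 0.05, whereas DESeq2 gave unadjusted p of 0.0393 for Mirg and 0.0381 for Dio3 in Smchd1wt and of 0.0248 for Dio3 in Smchd1matΔ. After adjustment by DESeq2 these were 0.191, 0.188 and 0.163, so 0 members were called.

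All 37 embryos were also fitted together with genotype and sex as covariates, a comparison added after the data were seen. Dio3, the thyroid hormone deiodinase, rose by 0.17 ± 0.06 log2 per somite (adjusted p = 0.0420, edgeR), from 4.42 ± 1.79 CPM (SD, n = 20) at 6 to 8 somites to 6.41 ± 1.56 CPM (n = 17) at 9 to 11 somites. Of all genes 18.6% were called in this fit, so 1 of 2 members stands against a high background. The Dio3 call held in 29 of 37 fits that left out 1 embryo, with edgeR adjusted p of 0.0149 to 0.0711, and was lost without Smchd1wt replicates 1 or 4 at 6, 3 at 10 or 3 at 11 somites, or without Smchd1matΔ replicates 4 at 6, 3 at 7, 3 at 10 or 1 at 11 somites. It was also lost without libraries under 5e6 counts (0.16 ± 0.06, edgeR adjusted p = 0.0514) and among females alone (0.18 ± 0.08, edgeR adjusted p = 0.113), with slopes about as large. The median sum of 7 endothelial markers was higher in the older window too, 298 and 338 CPM in Smchd1wt and 226 and 314 CPM in Smchd1matΔ, and its part in the Dio3 slope was not tested. Mirg had a slope of -0.08 ± 0.04 (edgeR adjusted p = 0.104), from 17.6 ± 3.91 to 14.9 ± 5.36 CPM. Without replicate 1 of Smchd1wt at 10 somites, the embryo with the highest Mirg of all 37, the Mirg slope was -0.10 ± 0.03 (edgeR adjusted p = 0.0144). Its slope in Smchd1wt alone then was -0.15 (edgeR adjusted p = 0.0253). These were the only calls of Mirg with 1 embryo left out, 1 of 37 fits and 1 of 21. Taking out the highest value from among the older embryos steepens a falling slope, so these calls are not relied upon.

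Dio3os, the RNA that starts beside Dio3 on the other strand, had 0.491 counts per 1e6 at 6 to 8 somites (95% Poisson interval 0.404 to 0.593) and 0.976 (0.870 to 1.09) at 9 to 11 somites. Per embryo it lay at 0 to 1.33 CPM (median 0.440) in the younger and at 0.365 to 1.84 CPM (median 0.861) in the older embryos, so the windows overlapped. The 2 rows do not overlap, Dio3os ending at 110278172 and Dio3 starting at 110279068.

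Sex, which was not balanced between the groups, had no called effect on either member. Male embryos had a log2 difference of 0.21 ± 0.15 from females for Mirg and -0.01 ± 0.22 for Dio3 (edgeR adjusted p = 1 for both, 0.219% of genes called, with 0 members called by DESeq2).

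Coding and non-coding members were set against each other by their summed counts, since a ratio of Meg3 to Dlk1 could not be formed with Dlk1 at 0. Non-coding counts exceeded coding counts in 37 of 37 embryos, 8548 against 3068 in all. These sums are not adjusted for length, and Mirg has 7292 bp of exon against 2030 bp for Dio3. Per length, the log2 ratio of Mirg to Dio3 lay below 0 in 26 of 37 embryos. The log2 ratio, with 0.5 added to each sum, averaged 1.65 ± 0.67 in Smchd1wt (SD, n = 21) and 1.93 ± 1.45 in Smchd1matΔ (n = 16), within the spread between embryos. The order of these means turned on replicate 1 of Smchd1matΔ at 6 somites, which had no Dio3 count and whose ratio the added 0.5 sets, as the Smchd1matΔ mean was 1.59 ± 0.55 without it (n = 15). Over both genotypes the ratio averaged 2.25 ± 1.23 at 6 to 8 somites (n = 20, 2.01 ± 0.54 without that library) and 1.2 ± 0.37 at 9 to 11 somites (n = 17). Within genotypes it was 2.04 ± 0.60 and 1.21 ± 0.46 in Smchd1wt, and 2.52 ± 1.74 (1.96 ± 0.49 without that library) and 1.18 ± 0.22 in Smchd1matΔ. In effect this is the ratio of Mirg to Dio3, and it has no test because it is a score over the members.

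The highest mean ratio was that of the embryos with 6 somites. At 6 somites it lay at 1.68 to 3.29 in Smchd1wt and at 1.68 to 6.99 in Smchd1matΔ embryos, where the highest was the library without a Dio3 count. At 11 somites it lay at 0.96 to 1.62 in Smchd1wt and at 0.96 to 1.09 in Smchd1matΔ. The lowest of all, 0.45, was a Smchd1wt embryo with 10 somites. Adjusted for length, the log2 ratio of Mirg to Dio3 averaged 0.39 ± 1.24 at 6 to 8 somites, where 10 of 20 embryos lay below 0, and 0.14 ± 0.55 without the library that had no Dio3 count. At 9 to 11 somites it averaged -0.65 ± 0.37.

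**Figure D4:**
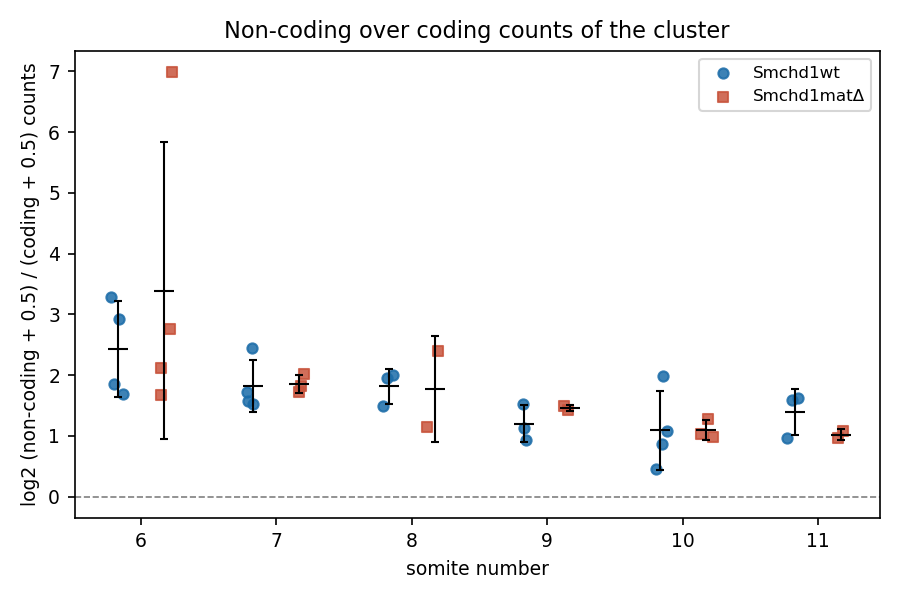
Log2 ratio of summed non-coding (Meg3, Rian, Mirg) to summed coding (Dlk1, Rtl1, Dio3) counts, 0.5 added to each (y axis), by somite number (x axis) for Smchd1wt (circles) and Smchd1matΔ (squares) embryos with mean and SD. All 37 points lie above 0, and the mean over both genotypes is 2.91 at 6 somites (2.33 without the highest point, a library with no Dio3 count) and 1.24 at 11 somites. Counts are not adjusted for length, and per length the ratio of Mirg to Dio3 is below 0 in 26 of the 37 embryos.

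Whether members varied together from embryo to embryo was asked over 37 embryos. For Mirg and Dio3, Pearson's r of log2 CPM was 0.302 (permutation p = 0.0762, adjusted over 6 pairs 0.229) and Spearman's rho 0.0854 (permutation p = 0.616, adjusted 0.739). Without the 2 embryos farthest from the median of Dio3, r was 0.179. Once the mean of each stage and genotype group was removed, r was 0.489 (permutation p = 0.00689, adjusted 0.0413) and rho 0.470 (permutation p = 0.00363, adjusted 0.0193). This r was 0.369 without the 2 farthest embryos. The permutation shuffled the 37 deviations freely and made no allowance for the group means removed. These p-values are therefore too small and are not relied upon. Within genotypes r was 0.116 in Smchd1wt (permutation p = 0.621) and 0.579 in Smchd1matΔ (permutation p = 0.0340, adjusted 0.204), and the latter was 0.0724 without the 2 farthest embryos and so rests on them. The other 5 pairs include Meg3 or Rian, which had 0 to 11 counts per library, and are not read.

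Levels of Mirg were set beside markers of other cell types across embryos. Of 20 relations computed between the 2 members and 10 marker lists, that of Mirg with the summed endoderm markers (10 genes, among them Sox17, Ttr and Afp) was r = 0.588 (permutation p = 0.00014, adjusted 0.0014) and rho = 0.624 (permutation p = 6e-05, adjusted 0.0012). It was 0.523 without the 2 embryos farthest from the median of the marker sum and 0.458 after group means were removed. For all marker relations the 2 farthest embryos are those farthest in the marker sum, not in Mirg or Dio3. Their permutations shuffled the embryos freely and made no allowance for stage or genotype, so a shared change with stage enters these p-values. With the tailbud markers Mirg had r = -0.619 (permutation p = 8e-05, adjusted 0.0014) and rho = -0.463 (permutation p = 0.00444, adjusted 0.0178), where r became -0.361 without the 2 farthest embryos and -0.708 after group means were removed. The notochord and surface ectoderm sums had r = -0.507 and 0.444 with Mirg (permutation, adjusted p = 0.00605 and 0.0253).

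The median endoderm sum was lower in older embryos, from 1475 CPM (486 to 4385) at 6 to 8 somites to 211 CPM (28.0 to 3393) at 9 to 11 somites in Smchd1wt, and from 1268 CPM (599.9 to 1992) to 183 CPM (34.7 to 3406) in Smchd1matΔ embryos. The 2 older embryos with the highest endoderm sums differed in Mirg, as replicate 1 of Smchd1wt at 10 somites (3393 CPM) had 32.5 CPM and replicate 2 of Smchd1matΔ at 10 somites (3406 CPM) had 13.9 CPM. The part of the endoderm sum in the stage differences of Mirg was not tested, and in bulk tissue fewer cells of a type and less RNA per cell cannot be told apart. Dio3 was related to the endothelial sum (r = 0.483, permutation p = 0.00027, adjusted 0.0018, and rho = 0.567, permutation p = 0.00029, adjusted 0.0029). This r was 0.495 without the 2 embryos farthest in the endothelial sum and 0.240 after group means were removed. Its r with the endoderm sum was -0.119 (permutation p = 0.495, adjusted 0.592). Dio3 had r = -0.475 with the trophoblast sum (permutation p = 0.0148, adjusted 0.0493). This r was 0.189 without the 2 embryos farthest in the trophoblast sum and so rests on them. For the neural tube sum, rho passed with Mirg (-0.416) and Dio3 (0.392) at permutation adjusted p of 0.0356 and 0.0489, while r did not (-0.358 and 0.0312). After group means were removed r was -0.289 for Mirg and -0.398 for Dio3, the latter opposite in sign to its rho. The erythroid, somite and allantois sums had no relation past an adjusted permutation p of 0.05 with either gene.

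**Figure D5:**
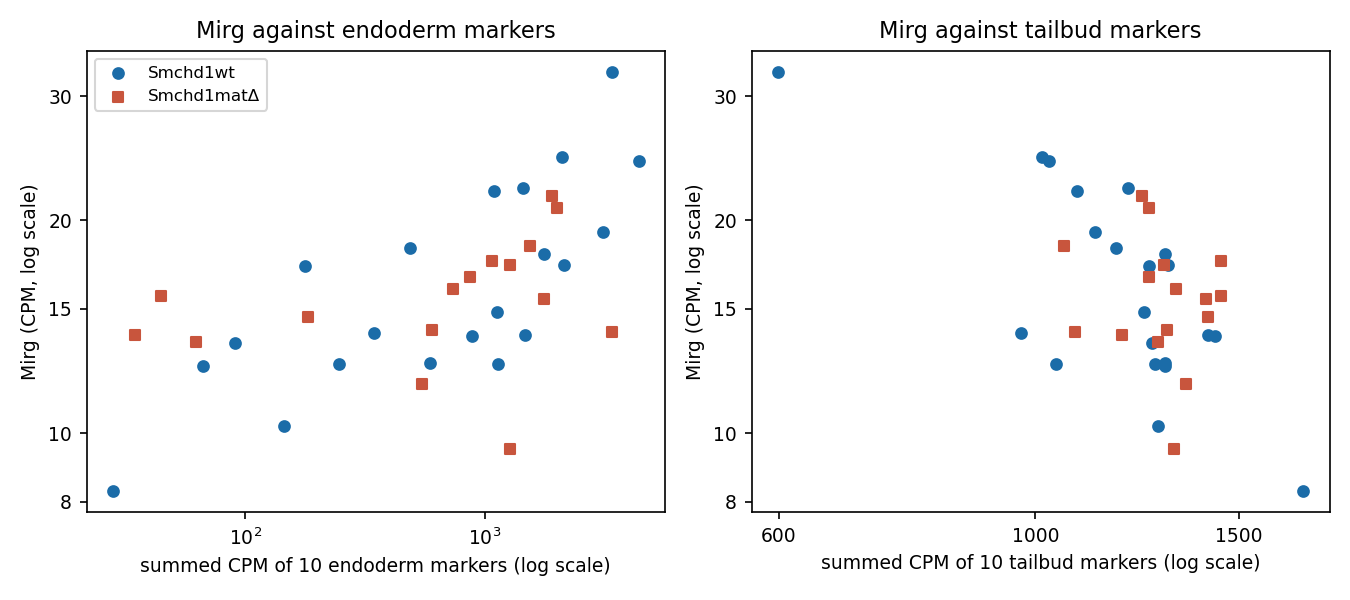
Mirg in CPM (y axes, log scale) against the summed CPM of 10 endoderm markers (left) and 10 tailbud markers (right, both x axes on a log scale), 1 point per embryo, Smchd1wt as circles and Smchd1matΔ as squares. The Smchd1wt embryo with the highest Mirg (32.5 CPM) has the lowest tailbud sum (599 CPM) and an endoderm sum of 3393 CPM.

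Of all genes past the filter, those whose log2 CPM was most like that of Mirg over the 37 embryos were Acadm (medium-chain acyl-CoA dehydrogenase of fatty acid oxidation, r = 0.856), Rab8a (a GTPase of vesicle transport, r = 0.775) and Selenos (a selenoprotein of the endoplasmic reticulum, r = 0.759). Without the 2 embryos farthest from the Mirg median these were 0.824, 0.707 and 0.726. Dio3 ranked 2353 of 15977 genes by likeness to Mirg. The nearest genes to Dio3 were Rhoj (an endothelial GTPase, r = 0.854), Thsd1 (r = 0.844) and Zfp119a (r = 0.838). These rest in part, and that of Zfp119a mostly, on the library at 0 for Dio3, as r was 0.665, 0.502 and 0.229 without it. Without the 2 embryos farthest from the Dio3 median r was 0.617, 0.491 and 0.165. Mirg ranked 2747 by likeness to Dio3. These genes were chosen for their likeness, so no test is given.

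The genes around the cluster and those of its pathways were read from lists. Of the 10 flanking genes tested, 0 passed with genotype or with stage in Smchd1wt (0.0125% and 6.64% of all genes called), and their median log2 fold change with genotype was -0.0027, against -0.0023 over all genes. Of the 16 imprint regulators, 0 passed the test with genotype, while Dnmt3b, a de novo DNA methyltransferase, had a slope of -0.10 ± 0.02 log2 per somite in Smchd1wt and Dnmt3a one of 0.06 ± 0.02 (edgeR adjusted p = 0.00373 and 0.0297). Among the Notch receptors and Dlk2, 4 of 5 were tested, 0 passed with genotype, and Notch4, an endothelial receptor, rose by 0.31 ± 0.04 per somite (edgeR adjusted p = 0.000114). Of the 7 thyroid hormone genes, the pathway of DIO3, 4 were tested and 0 passed with genotype or with stage in Smchd1wt.

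Imprinted genes of other loci were, in contrast to Dlk1 and Meg3, well counted. Of 51 such genes, 0 were at 0 and 6 had under 1 count per 1e6, with a median of 34.5 counts per 1e6. H19 (5014), Igf2 (1690), Mest (1253) and Grb10 (1461 counts per 1e6) were among them. Of the 21 maternally expressed genes tested 0 passed with genotype, and of the 27 paternally expressed genes 1 rose, which was Peg12. Of all genes 0.0125% were called in that fit. With stage in Smchd1wt, 0 of 20 maternally expressed genes were called, while 3 of 27 paternally expressed genes rose and 4 fell, where 6.64% of all genes were called. In the slope over all embryos, where 18.6% were called, 2 of 21 maternally expressed genes rose (Grb10 and Zim1) and 2 fell (Klf14 and Phlda2), and 6 of 27 paternally expressed genes rose and 5 fell. The difference between the lists was not tested. In Smchd1wt Plagl1 and Igf2, both growth regulators, rose by 0.25 ± 0.04 and 0.12 ± 0.03 log2 per somite, and Sfmbt2 fell by 0.33 (edgeR adjusted p = 0.00105, 0.0124 and 0.013). Of the 10 genes of the Rtl family, 7 were tested and 0 were called with genotype or with stage in Smchd1wt, and Rtl3 was at 0 in every library. In the slope over all embryos Rtl5 rose by 0.15 ± 0.04 and Ldoc1 fell by 0.22 log2 per somite (edgeR adjusted p = 0.0114 and 0.0327). The genes named from the slope over all embryos were chosen after their values were seen.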

How the data were processed

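Tailbud RNA of 37 embryos was analysed, 1 library each. The authors made, as labels and methods state, TruSeq poly(A) libraries with a stranded or unstranded kit (which kit made which library is not given), trimmed reads with Trim Galore 0.4.4, mapped them to GRCm38.p6 with HISAT2 2.0.5 and deposited raw counts per gene, whole numbers without normalisation. How strand was treated in counting is not given in the sources used here. Deposited tables of Hox genes (log2 RPKM) and of the authors' comparisons (p-values and fold changes) were not used.

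From 35591 rows 49 repeated identifiers were dropped, and 26 names turned into dates were restored. Groups came from the labels. Counts were tested with edgeR 4.0.16 (R 4.3.3, quasi-likelihood, filterByExpr with a minimum count of 10, TMM, Benjamini-Hochberg over all genes, threshold 0.05, two-sided) and, as an alternative, DESeq2 1.42.0. The SE was the absolute log2 fold change over the square root of F, and 95% intervals are normal. Genotype was fitted with stage (a level per somite number) and sex as covariates, slopes on somite number with sex, and single stages with genotype alone. Log2 CPM used a prior count of 2, correlations 100000 permutations, and RPKM the merged exon lengths of GENCODE M21. Shares and rates of single genes have exact Poisson intervals, which cover counting error only. Sequences are RefSeq's (GRCm38.p6). The fits were tested on simulated data.

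The 6 members are named throughout, with other rows of their interval, the 3 genes nearest in pattern to Mirg and Dio3, and called genes of listed pathways, at most 5 a list by smallest p. Members and lists were chosen with earlier results of these data known. Same-numbered embryos were not treated as pairs in the main fits.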

Additional observations from a re-analysis of the deposited data

Results flagged for a closer look

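In the 4 groups of 4 embryos, each examined for 2 genes (Mirg and Dio3), 1 of 8 sets of values held a sample far from its group by Dixon's criterion. Replicate 1 of Smchd1wt at 10 somites had 32.5 CPM of Mirg, against 10.2 to 12.6 CPM in the other 3 embryos. Chance alone marks about 1 set in 20. This embryo was the only male of its group and had the lowest Smchd1 level of the Smchd1wt libraries (104.9 CPM, with Smchd1matΔ reaching 112 CPM). Replicate 4 of Smchd1wt at 6 somites was close to it, at 105.3 CPM. Replicate 1 at 10 somites also had the lowest tailbud marker sum of all embryos (599 CPM). The part of its sex, Smchd1 level and tailbud sum in its Mirg level was not tested.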

How the results depend on the processing

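No setting brought a call of genotype for Mirg or Dio3. For Dlk1, Rtl1, Meg3 and Rian the floors and intervals cover counting error only, and whether reads were lost at these loci was not tested. Of 90 counts and summary values under other settings 87 stayed within the spread or 1.5 times the main value, as did 323 of 333 with 1 embryo left out. Of 174 values of single genes under other settings 167 kept direction and call, and 548 of 592 with 1 embryo left out. The cause of the changes below was not tested.

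In the Smchd1wt slope, 1 member in place of 0 was called without the filter on low counts (Meg3), and 1 among females alone (Mirg, -0.16, edgeR adjusted p = 0.026). Leaving out 1 embryo gave 0 to 1. In the slope over all embryos, 0 in place of 1 were called without libraries under 5e6 counts (Dio3, adjusted p = 0.0514), and 0 to 2 with 1 embryo left out. Among females alone that fit called Mirg (adjusted p = 0.0358) and not Dio3 (0.113).

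Small genotype estimates changed sign, all without a call. Mirg was -0.0018 at 9 to 11 somites with the replicate block and 0.048 at 6 somites without the libraries rich in ribosomal RNA, and Dio3 was -0.0031 at 9 somites without the filter. With 1 embryo left out, Mirg ran from -0.12 to 0.22 at 9 to 11 somites, -0.25 to 0.049 at 6, -0.14 to 0.54 at 9, -0.44 to 0.26 at 10 and -0.0023 to 0.40 at 11 somites. Dio3 ran from -0.14 to 0.0296 over all stages, -0.91 to 0.28 at 6, -0.94 to 0.45 at 8, -0.44 to 0.32 at 9 and -0.23 to 0.0104 at 10 somites, and its sex difference from -0.086 to 0.061. Where this left 1 embryo in an arm, it was assumed to vary like the others.

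The labels number replicates alike in both genotypes. Over 16 pairs, deviations of same-numbered embryos correlated at -0.29 to 0.58 (median 0.011, 4 over 0.1). The labels do not say whether the numbers pair embryos, and these values cannot show whether same-numbered embryos shared a litter or a batch. With the replicate block 0 members were called in every genotype comparison, as without it. Over all genes DESeq2 called 37 where edgeR called 1 at 6 to 8 somites, 1127 where edgeR called 475 in the Smchd1matΔ slope, and 10 where edgeR called 0 at 11 somites.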
